A study of Mus musculus with 6 samples.

Results

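The genes described here carry cytokine signals through Janus kinases (JAK) and signal transducers and activators of transcription (STAT) and switch those signals off again. They are the inhibitors Socs1, Socs2, Socs3 and Cish, the transcription factors Stat3, Stat5a and Stat5b, the kinase Jak1, and the receptor chains Il22ra1 and Il6st. The members were all probe sets whose gene symbol in the platform annotation was one of these names: 27 of 45101 probe sets, for 10 of 18193 genes with a probe set of their own. The set was chosen by the differences in signal between HDAC2 KO and control colon, so those differences are given as a description, without a test.

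The study compared 3 HDAC2 KO with 3 control colon samples of mice, 1 array each. HDAC2 is a histone deacetylase. In HDAC2 KO mice the floxed gene was deleted by Cre made from the villin promoter, active in intestinal epithelium, so leukocytes, fat, muscle and other cells of the colon keep the gene. The labels call the other group control mice and do not say whether they carried floxed alleles or Cre. All mice were of a mixed CD-1/129/C57BL/6 background, on a normal diet and untreated, and no age is given. The source labels name epithelium and 1 numbered mouse per sample, while the extraction protocol speaks of the colon. The description label of the HDAC2 KO samples names both HDAC1 and HDAC2, whereas titles and genotype labels name HDAC2 alone.

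Values are log2 signals made with RMA, which forces all arrays to 1 distribution and compresses differences at low signal. For Hdac2 itself, the brightest probe set gave 10.21, 10.12 and 10.24 in HDAC2 KO, against 10.40, 10.37 and 10.43 in control. That is 13.7% less signal (-0.21, SE 0.040, limma adjusted p = 0.00893, n = 3 arrays per group). The part of cells that keep the gene in the remaining signal was not tested. The call was lost with every probe set tested one by one (limma adjusted p = 0.0768) and without probe sets that can bind several transcripts (0.0884, within 0.000771 to 0.0884 over the alternatives). The epithelial markers Epcam (13.95 ± 0.0083 in HDAC2 KO, 13.93 ± 0.015 in control; SD, n = 3 each) and Vil1 (12.19 ± 0.052 in HDAC2 KO, 12.08 ± 0.016 in control), which encodes villin, were bright in both groups. Smooth muscle Acta2 was bright as well (13.64 ± 0.027 in HDAC2 KO, 13.56 ± 0.012 in control), so the samples were not epithelium alone. The X-linked transcript Xist, made in female cells, averaged 11.54 ± 0.022 in HDAC2 KO and 12.02 ± 0.023 in control. The Y-linked gene Kdm5d averaged 7.63 ± 0.25 in HDAC2 KO and 6.96 ± 0.062 in control, with no overlap. Xist and the Y-linked genes thus moved with the genotype, and their part in the differences below was not tested. Whether each sample was 1 mouse or a pool of mice of both sexes is not settled by these values, so the spreads may be those of pools or technical. RNA quality was read from the signal at the 3 prime end minus that at the 5 prime end, which was 0.484 ± 0.020 in HDAC2 KO and 0.504 ± 0.0092 in control for Actb (SD, n = 3 each, exact 2-sided permutation p = 0.2, the smallest possible being 0.1).

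As background, a cytokine brings its receptor chains together, the JAK kinases bound to them become active, and STAT proteins are phosphorylated, pair and enter the nucleus. There they bind a short palindrome, TTCNNNGAA. Among the genes they switch on are those of the SOCS family, whose proteins bind active receptors or JAKs and end the signal, a negative feedback loop. In the gut, IL-22 and the IL-6 family reach STAT3 in epithelial cells, where STAT3 is known for wound repair and for the induction of the antimicrobial lectins Reg3b and Reg3g. Il6st encodes gp130, the chain that all IL-6 family receptors share, and Il22ra1 the epithelial chain of the IL-22 receptor.

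The palindrome itself was looked for in RefSeq promoter windows of assembly GRCm38.p6, each holding 250 bases before and 50 after an annotated start, on both strands (the motif reads the same on either). It was found in 8.3% of all 32851 windows. There were 11 windows for 9 of the 10 genes, and 2 of them held it, those of Socs3 and Cish, both feedback inhibitors. The sequences are shown because they are the members' only matches. The capitals mark TTCNNNGAA.
Socs3: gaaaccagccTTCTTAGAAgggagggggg
Cish: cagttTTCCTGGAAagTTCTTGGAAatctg
The Socs3 stretch is chr11:117969502-117969530 on the minus strand, and its palindrome begins 154 bases before the start. The Cish stretch is chr9:107296654-107296683 on the plus strand. It holds 2 palindromes, which begin at bases 1 and 12 after the annotated start. A match is a description of the sequence and says nothing of binding.

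Socs3 stood out among the inhibitors. It encodes the feedback inhibitor of gp130 and STAT3 signalling, which binds the phosphorylated gp130 chain and blocks the JAKs on it. Its probe set of highest signal, 1455899_x_at, read 7.57, 7.37 and 7.70 on the HDAC2 KO arrays, against 6.88, 6.85 and 6.80 on the control arrays. All 3 HDAC2 KO values lay above all 3 control values, with HDAC2 KO replicate 2 the lowest of its group. The difference was 0.70 (SE 0.076), or 1.63-fold. Probe set 1456212_x_at read 7.505, 7.235 and 7.72 in HDAC2 KO, against 6.83, 6.89 and 6.83 in control, a difference of 0.63 (SE 0.11). Probe set 1416576_at read 7.25, 7.25 and 7.34 in HDAC2 KO, against 6.65, 6.89 and 6.92 in control, a difference of 0.46 (SE 0.079), or 1.37-fold. The groups did not overlap on any of the 3 Socs3 probe sets. The first and second are of a type that can bind other transcripts, the third is not, and HDAC2 KO replicate 2 was the low array only on the first and second. In tissue of many cell types, more cells of a type and more RNA per cell cannot be told apart. The leukocyte, fat and epithelial marker values that moved with the genotype are given further below, and their part in the Socs3 difference was not tested.

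**Figure D1:**
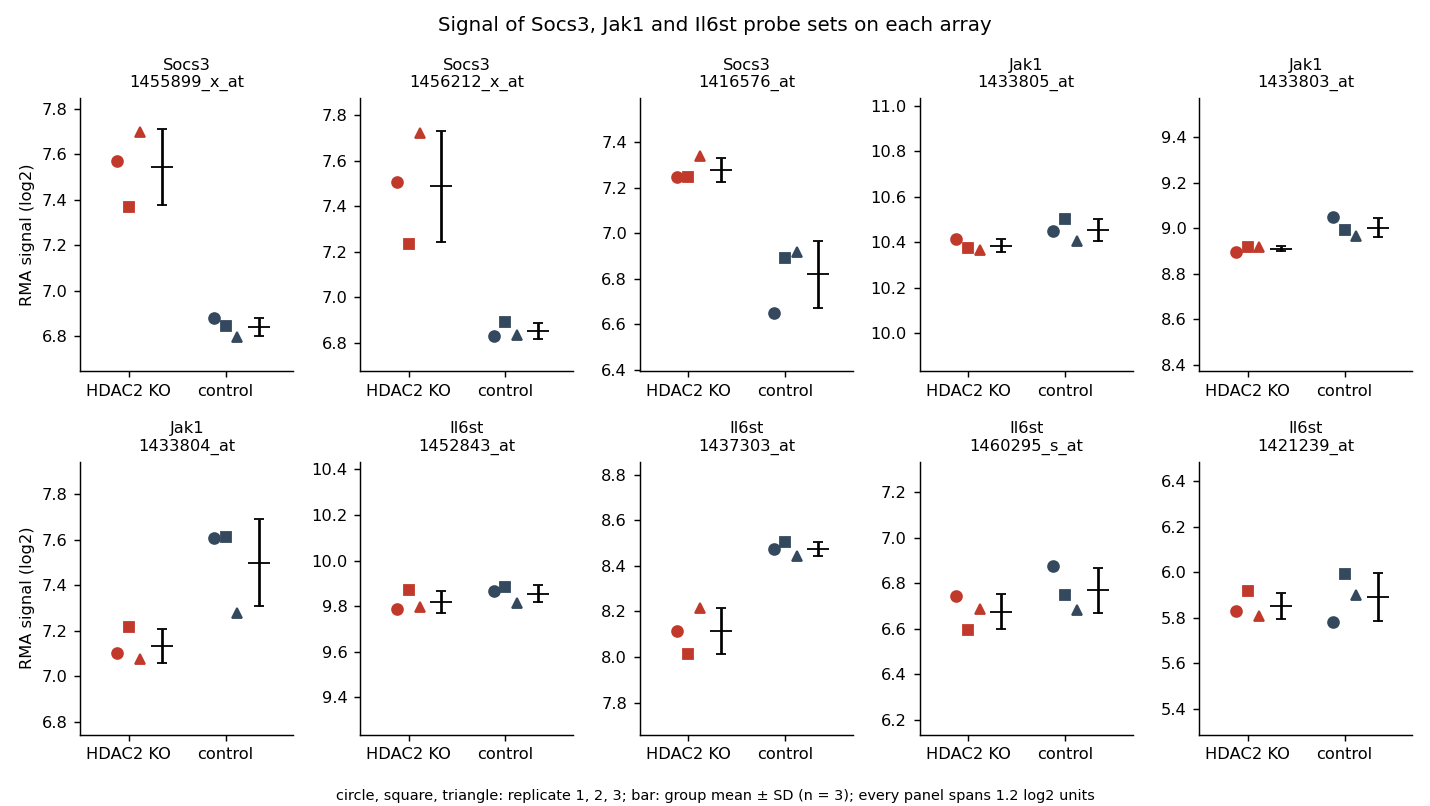
RMA signal (log2, vertical axis) on each array for the 3 probe sets of Socs3, the 3 of Jak1 and the 4 of Il6st, HDAC2 KO in red and control in dark blue; symbols are replicates and bars the group mean ± SD (n = 3). Socs3 is higher in HDAC2 KO on every probe set, while Jak1 and Il6st each have 1 probe set that is lower by 0.37 and 0.36 beside others that differ by under 0.1.

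The other inhibitors differed less. Socs2, which restrains growth hormone signalling, had 6 probe sets. The brightest read 9.91, 9.79 and 9.76 in HDAC2 KO, against 9.93, 9.98 and 9.94 in control, a difference of -0.13 (SE 0.045) without overlap. The other Socs2 probe sets overlapped between groups, with differences between -0.18 and 0.095, and the 3 dimmest lay below the level of the signal filter. Cish, the founding member of the family and a target of STAT5, read 8.40, 8.37 and 8.42 in HDAC2 KO, against 8.45, 8.41 and 8.43 in control. The groups overlapped, and the difference was -0.03 (SE 0.032). Socs1, an inhibitor of JAKs that is best known for limiting interferon signals, had 1 probe set, which lay below the filter level and was not tested. It read 5.98, 6.34 and 6.14 in HDAC2 KO, against 6.19, 6.18 and 6.07 in control, a difference of 0.0073 in overlapping groups.

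The STAT genes lie side by side on chromosome 11 in the order Stat5b, Stat5a, Stat3, with no other protein-coding gene between them in the RefSeq annotation. Stat3, which carries IL-6 and IL-22 signals, read 10.65, 10.51 and 10.54 in HDAC2 KO, against 10.56, 10.57 and 10.51 in control on its brightest probe set. These groups overlapped, and the difference was 0.02 (SE 0.043). The second bright Stat3 probe set, 1460700_at, differed by 0.0188 (10.18, 10.19 and 10.18 in HDAC2 KO, 10.18, 10.15 and 10.17 in control). Its groups did not overlap, though the lowest HDAC2 KO array (10.1763) was barely above the highest control array (10.1753). Stat5a, which with Stat5b answers growth hormone, prolactin and several lymphocyte cytokines, averaged 7.43 ± 0.025 in HDAC2 KO and 7.44 ± 0.067 in control (SD, n = 3 each), with a difference of -0.0092 (SE 0.042). Among the STAT genes that are members, only Stat5b separated the groups on its brightest probe set. It read 7.82, 7.85 and 7.78 in HDAC2 KO, against 7.96, 7.92 and 7.96 in control. Stat4 and Stat6, which are no members, did so as well and are given further below. The Stat5b difference was -0.13 (SE 0.034), or 8.74% less signal. Its second probe set overlapped, at 6.64 ± 0.19 in HDAC2 KO and 6.70 ± 0.070 in control.

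Probe sets of the kinase and receptor genes did not all read alike. Jak1, the kinase bound to gp130, to the IL-22 receptor and to many others, read 10.42, 10.38 and 10.36 in HDAC2 KO, against 10.45, 10.50 and 10.41 in control on its brightest probe set. That difference was -0.07 (SE 0.038) in overlapping groups. Its dimmest, 1433804_at, read 7.10, 7.215 and 7.07 in HDAC2 KO, against 7.61, 7.61 and 7.28 in control, a difference of -0.37 (SE 0.097) without overlap. Control replicate 3 lay nearest to the HDAC2 KO arrays there. The third Jak1 probe set, 1433803_at, was lower by 6.15% without overlap (8.91 ± 0.012 in HDAC2 KO, 9.003 ± 0.042 in control).

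Il6st showed the same split. Its brightest probe set, 1452843_at, read 9.79, 9.87 and 9.80 in HDAC2 KO, against 9.87, 9.88 and 9.81 in control, with overlap and a difference of -0.04 (SE 0.039). Probe set 1437303_at read 8.11, 8.01 and 8.21 in HDAC2 KO, against 8.48, 8.504 and 8.44 in control. All its HDAC2 KO values lay below all control values, by 0.36 on average (SE 0.062), or 22.1% less signal. The remaining Il6st probe sets overlapped, with differences of -0.09 and -0.04. Where in the transcript each probe set binds was not analysed here, so these values do not say whether a transcript form or the whole gene differed. Il22ra1 had 1 probe set. It read 8.23, 8.06 and 8.10 in HDAC2 KO, against 8.32, 8.26 and 8.20 in control, a difference of -0.13 (SE 0.053) with 1 HDAC2 KO array inside the control range.

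Of the 10 genes, 9 reached the signal filter and entered the fit over all 10916 genes tested. There limma called 2 members at an adjusted p under 0.05, where 17.9% of all genes tested were called. Called higher was 1 member, Socs3, where 9.68% of all genes were called higher. Called lower was 1 member, Stat5b, where 8.2% were. Stat5b was no longer called in the paired fit, nor when 1 array was left out, unless that array was HDAC2 KO replicate 2. Socs2, not called in the main fit, was called lower under 3 alternatives. These were an intensity trend with robust variances, arrays centred on the epithelial markers (-0.22), and the fit without HDAC2 KO replicate 1 (-0.17). With the mean of each gene's probe sets 3 members were called, Socs3 higher and Jak1 (-0.18) and Il6st (-0.13) lower, and Stat5b (-0.098) was not. With every probe set tested one by one, 4 of the 27 were called, the 3 of Socs3 and 1437303_at of Il6st, where 3.8% of all 45037 probe sets were called, 1.72% higher and 2.08% lower. Groups did not overlap for 9 of the 27, of which 4 were higher and 5 lower, where 23.2% of all probe sets did not overlap. The median difference was -0.035 over the 9 members tested and 0.0032 over all genes tested. Nothing is read from these counts, since the members were proposed from the same comparison.

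**Figure D2:**
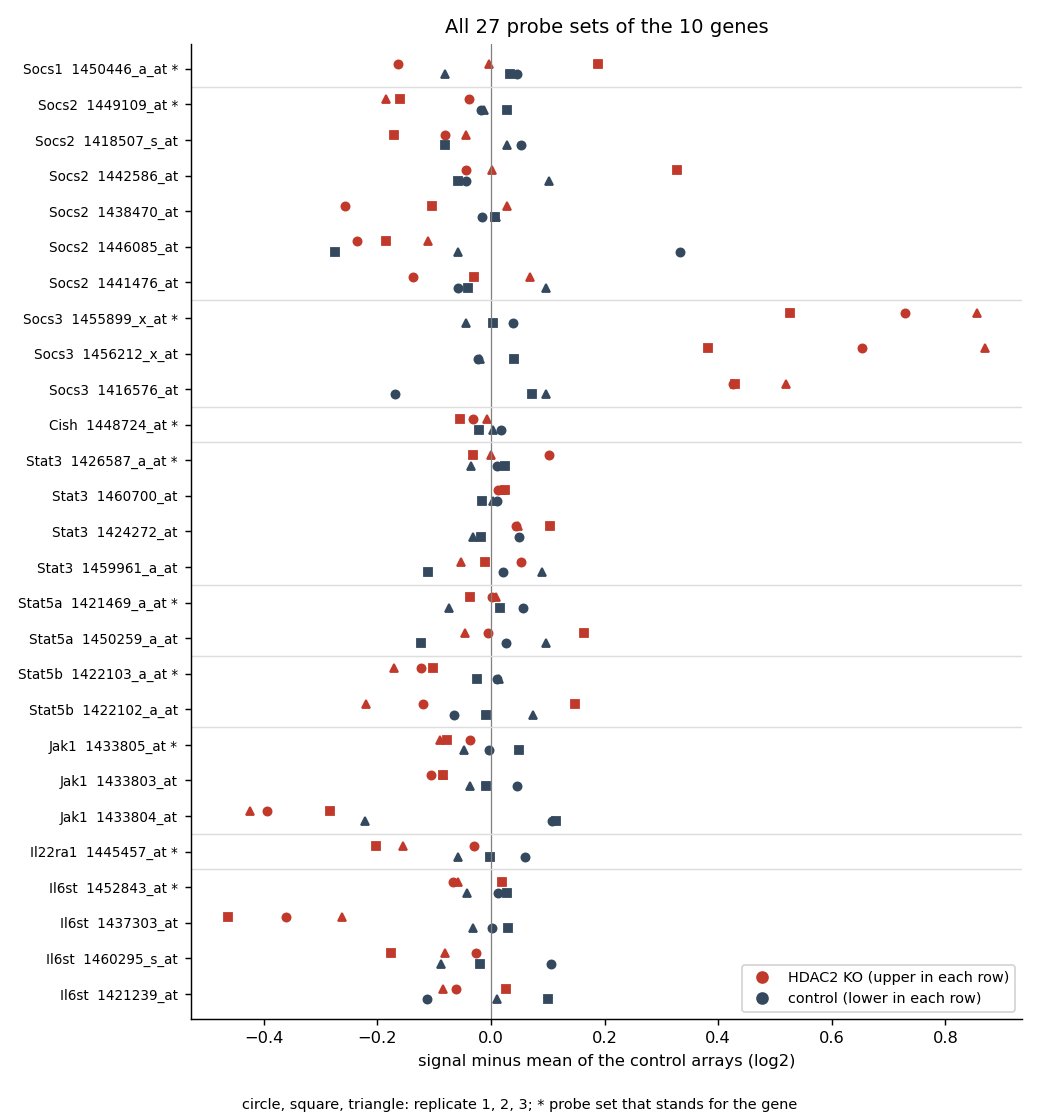
Signal of each array minus the mean of the control arrays (log2, horizontal axis) for all 27 probe sets, HDAC2 KO in red above control in dark blue in each row; an asterisk marks the probe set that stands for the gene. Of the 27 rows, 21 have a mean difference under 0.15 in size, and the Socs3 rows, 1433804_at of Jak1 and 1437303_at of Il6st lie farthest from 0.

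The tested genes whose profile over the 6 arrays was nearest to that of Socs3 were Mtm1, Kdm5d and Eif2s3y. Likeness was the root mean square difference between log2 signals, each gene centred on its own mean, over the 10915 other genes. It was 0.0497 for Mtm1, a phosphoinositide phosphatase gene on chromosome X, 0.0583 for Kdm5d and 0.061 for Eif2s3y, both on chromosome Y. Mtm1 read 11.35, 11.13 and 11.41 in HDAC2 KO, against 10.59, 10.48 and 10.57 in control. Kdm5d read 7.71, 7.36 and 7.84 in HDAC2 KO, against 6.96, 7.02 and 6.90 in control. In both, as on the first and second Socs3 probe sets, HDAC2 KO replicate 2 was the lowest and replicate 3 the highest array of its group. Both were picked for their likeness to Socs3 on these arrays, so nothing is read from the shared order. Hdac2 and Ghr, which were lower in HDAC2 KO, had the same order within that group.

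The rest of the pathway was followed in 16 lists of 126 genes that are no members, of which 82 reached the filter. Of these, limma called 19, or 23.2%, with 8 higher and 11 lower in HDAC2 KO, where 17.9% of all genes tested were called. The split was 4 higher and 14 lower without the signal filter, and 7 higher and 16 lower with the mean of each gene's probe sets. Their median difference was 0.0027, against 0.0032 for all genes. In 9 of the 16 lists 0 genes were called. Differences are given with limma's adjusted p over all genes tested, n = 3 arrays per group.

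The cytokine genes were mostly too dim to test. Of 23 genes for IL-6 family, IL-10 family and common gamma chain cytokines and TSLP, 17 had a probe set of their own and 4 reached the filter, none of them called (limma adjusted p between 0.0627 for Il7 and 0.973 for Il20; unadjusted p under 0.05 for 1 of the 4). The 13 below the filter, among them Il6, Il11 and Lif, had mean signals between 3.30 and 6.40, and their differences lay between -0.16 and 0.17. Il22 shares its probe set with Iltifb and was not used.

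Receptor chains held most of the lower calls. Among the partners of gp130, Lifr, the receptor chain for leukaemia inhibitory factor, read 7.65, 7.38 and 7.66 in HDAC2 KO, against 8.14, 8.10 and 8.10 in control. It fell by 0.55 (SE 0.073, limma adjusted p = 0.00156), or 1.47-fold, although 1 of its 3 probe sets had a higher mean in HDAC2 KO. Il6ra, the chain that binds IL-6 itself, averaged 6.83 ± 0.097 in HDAC2 KO and 7.13 ± 0.057 in control (SD, n = 3 each) and fell by 0.30 (SE 0.055, limma adjusted p = 0.00732). Its second probe set had a difference of the other sign, and the call was lost with the mean of both (limma adjusted p = 0.233, within 0.000242 to 0.233 over the alternatives). The oncostatin M chain Osmr, named here because the replicate block changed its call, differed by -0.16 (SE 0.055, limma adjusted p = 0.0831; 0.0234 with the block, within 0.00603 to 0.27 over the alternatives). Of the 3 Osmr probe sets, 2 had a higher mean in HDAC2 KO. Of 4 partners tested, 2 were called lower and none higher.

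The growth hormone receptor Ghr read 9.55, 9.45 and 9.57 in HDAC2 KO, against 9.99, 9.96 and 9.90 in control. It fell by 0.43 (SE 0.043, limma adjusted p = 0.000422), and all 3 of its probe sets were lower. The leptin receptor Lepr averaged 6.65 ± 0.16 in HDAC2 KO and 7.01 ± 0.018 in control (SD, n = 3 each) and fell by 0.36 (SE 0.072, limma adjusted p = 0.0112). Its HDAC2 KO mean lay under the filter level, and 1 of its 4 probe sets had a higher mean in HDAC2 KO. The difference was -0.17 with the mean of its probe sets, and the call was lost with every probe set tested one by one (limma adjusted p = 0.0582, within 0.000619 to 0.0582 over the alternatives). The epidermal growth factor receptor Egfr and the erythropoietin receptor Epor were tested and not called. Adipocyte markers fell by more on the same arrays: 3 of 3 tested were called lower, and Adipoq, the adipocyte hormone adiponectin, averaged 7.29 ± 0.029 in HDAC2 KO and 10.32 ± 0.062 in control. The summed linear signal of the 5 adipocyte genes with a probe set lay between 929 and 997 in HDAC2 KO and between 4330 and 4580 in control. Lep and Cidec of that list were below the filter. The part of fat in the receptor differences was not tested.

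Chains of the common gamma and beta receptors went both ways, with 2 of 8 tested lower and 2 higher. Il7r, the IL-7 receptor chain of lymphocytes, read 6.64, 6.44 and 6.57 in HDAC2 KO, against 7.19, 7.44 and 7.24 in control, and fell by 0.74 (SE 0.074, limma adjusted p = 0.000408). All its HDAC2 KO values lay under the filter level of 6.66, so it was tested on account of the control arrays. Without the filter its limma adjusted p was 0.00228 (within 2.62e-05 to 0.00533 over the alternatives). Csf2rb, the shared beta chain of myeloid cytokines, fell by 0.30 (SE 0.065, limma adjusted p = 0.0154). Crlf2, a chain of the TSLP receptor, rose by 0.16 (SE 0.036, limma adjusted p = 0.0179), and Csf2ra, which pairs with Csf2rb, by 0.29 (SE 0.084, limma adjusted p = 0.0493) in overlapping groups. Of the 2 Csf2ra probe sets, 1 had a higher and 1 a lower mean in HDAC2 KO. Its call was lost with the mean of both (0.133, limma adjusted p = 0.18, within 0.0186 to 0.18 over the alternatives). It was also lost without the filter (limma adjusted p = 0.114). Single arrays decided 3 of the calls in this list. Csf2rb was lost without HDAC2 KO replicate 1 or control replicate 2, Crlf2 without HDAC2 KO replicate 1 or any control array, and Csf2ra without HDAC2 KO replicate 2 or 3 or control replicate 1 or 2.

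Ptprc, the phosphatase CD45 that acts on JAKs in leukocytes, also counts among the leukocyte markers. It read 9.77, 9.61 and 9.76 in HDAC2 KO, against 10.51, 10.52 and 10.51 in control, and fell by 0.80 (SE 0.046, limma adjusted p = 1.79e-05). It was the 1 called gene of 10 PIAS proteins and phosphatases. Of 8 leukocyte markers tested 7 fell (without Cd3e in the paired fit, limma adjusted p = 0.0977, within 0.00341 to 0.162 over the alternatives), among them Cd3d of T cells (1.37 lower, limma adjusted p = 6.4e-06) and Ms4a1 of B cells (0.68 lower, limma adjusted p = 2.02e-05). The summed signal of the 15 leukocyte genes with a probe set lay between 3400 and 3450 in HDAC2 KO and between 5030 and 5160 in control, with Cd3g, Cd2, Cd8a, Itgam, Itgax, Cd68 and Adgre1 below the filter. Of the innate lymphoid list, which shares Il7r, 2 of 3 tested fell, Il7r and the chemokine receptor gene Ccr6 (0.56 lower, limma adjusted p = 3.62e-05). Its member Ahr, the aryl hydrocarbon receptor, averaged 9.24 ± 0.10 in HDAC2 KO and 9.27 ± 0.061 in control. The summed signal of the 4 innate lymphoid genes with a probe set lay between 827 and 920 in HDAC2 KO and between 989 and 1060 in control, with Ncr1 below the filter. The part of leukocytes in the Il7r, Csf2rb and Ptprc differences was not tested.

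**Figure D3:**
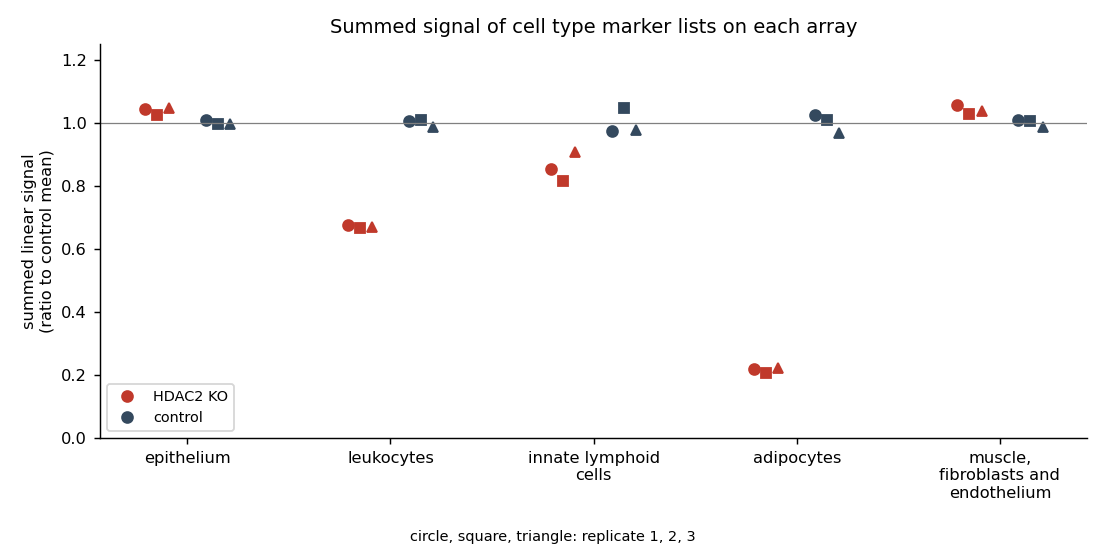
Summed linear signal of 5 marker lists on each array, as a ratio to the mean of the control arrays (vertical axis from 0), HDAC2 KO in red left of control in dark blue. The ratio of mean sums is 1.04 for epithelium, 0.67 for leukocytes, 0.858 for innate lymphoid cells, 0.217 for adipocytes and 1.04 for muscle, fibroblasts and endothelium.

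Epithelial markers differed less: 2 of 11 were called higher and none lower, the differentiation keratin Krt20 (0.48 higher, limma adjusted p = 9.11e-05) and the transcription factor Cdx2 (0.20 higher, limma adjusted p = 0.0036). Krt18 differed by 0.10 (SE 0.031, limma adjusted p = 0.0557). Their summed signal lay between 122000 and 124000 in HDAC2 KO and between 118000 and 120000 in control. Of 8 markers of muscle, fibroblasts and endothelium, the endothelial Pecam1 fell (0.34 lower, limma adjusted p = 0.00221) and the muscle filament gene Des rose (0.21 higher, limma adjusted p = 0.0089), with summed signals between 31500 and 32400 in HDAC2 KO and between 30300 and 30900 in control.

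In the lists of other JAK kinases, other STAT factors, other SOCS proteins and the SOCS box ubiquitin ligase, limma called no gene. The list of other JAK kinases held Jak2 (0.11, SE 0.041, limma adjusted p = 0.0938), Jak3 and Tyk2. Of the other STAT factors, Stat6 alone was tested (-0.10, SE 0.032, limma adjusted p = 0.0778), without overlap, Stat2 and Stat4 being below the filter. Stat4, named after its values were seen, averaged 5.53 ± 0.25 in HDAC2 KO and 6.34 ± 0.13 in control (SD, n = 3 each). Its difference of -0.81, without overlap, was larger in size than that of Stat6 and was not tested. Stat2 differed by 0.103 in overlapping groups. Socs4, Socs5, Socs6 and Socs7 were tested, and the largest difference in size was -0.11 (SE 0.085) for Socs7. The 4 interferon receptor chains, the 3 tested chains of the IL-10 family receptors and the 6 genes of the ubiquitin ligase that SOCS proteins recruit lay between -0.04 and 0.091.

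Known targets of STAT3 in gut epithelium split widely. Of 20 tested, 4 rose, 2 fell and 14 were not called, with a median difference of 0.0015. Reg3b read 10.79, 10.75 and 10.89 in HDAC2 KO, against 7.19, 7.32 and 7.28 in control, 11.7-fold higher (3.54, SE 0.049, limma adjusted p = 5.87e-09). Reg3g read 8.89, 8.64 and 8.72 in HDAC2 KO, against 6.09, 6.14 and 6.10 in control, a difference of 2.64 (SE 0.062, limma adjusted p = 1.35e-07). Its control signals were under the filter level, and RMA compresses differences there. These lectins were the largest differences of the list. The membrane mucin gene Muc1 rose by 0.34 (SE 0.047, limma adjusted p = 0.00217), and Birc5, which encodes the cell division and survival protein survivin, by 0.15 (SE 0.038, limma adjusted p = 0.0348; 0.0531 with the replicate block, within 0.00458 to 0.222 over the alternatives). Without HDAC2 KO replicate 1 or 3 or any control array the Birc5 call was lost.

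Lrg1, a secreted glycoprotein of the acute phase, went the other way, at 6.999, 6.95 and 6.98 in HDAC2 KO, against 7.77, 7.67 and 7.63 in control, and fell by 0.72 (SE 0.043, limma adjusted p = 2.34e-05). The growth regulator Myc fell by 0.23 (SE 0.049, limma adjusted p = 0.0154), a call lost without control replicate 1 (limma adjusted p = 0.069) and with every probe set tested one by one (0.0945, within 0.0012 to 0.0945 over the alternatives). The acute phase genes Saa1, Saa2 and Saa3, the kinase gene Pim1, Bcl3, Junb, Cebpb and Cebpd were tested and not called. Among the RefSeq windows of this list, 1 of 24 held TTCNNNGAA, that of Reg3b. The Socs3 difference of 0.70 and the lectin differences came from the same arrays, and whether Socs3 and the lectins changed in the same cells was not measured.

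Of 5 STAT5 targets tested, 2 fell: the growth factor gene Igf1 (7.33, 7.46 and 7.35 in HDAC2 KO, 7.85, 7.82 and 7.70 in control; 0.41 lower, SE 0.052, limma adjusted p = 0.00131) and the survival kinase gene Pim2 (0.33 lower, SE 0.067, limma adjusted p = 0.0122). Igf1 is also made by fat and stromal cells and Pim2 by lymphocytes, whose markers are given above, and their part was not tested. Of 7 interferon-induced genes tested, 2 rose: the peptide transporter gene Tap1 (7.43, 7.504 and 7.32 in HDAC2 KO, 7.14, 7.13 and 7.12 in control; 0.29 higher, SE 0.048, limma adjusted p = 0.00505) and the interferon-induced GTPase gene Gbp2 (0.19 higher, SE 0.044, limma adjusted p = 0.021). Of the 4 Tap1 probe sets, 2 had a higher and 2 a lower mean in HDAC2 KO. The Gbp2 call was lost without HDAC2 KO replicate 1 or 3 or control replicate 1 or 3. The chemokine gene Cxcl9, named after its values were seen, was below the filter and not tested: it read 5.64, 6.12 and 5.85 in HDAC2 KO, against 6.90, 6.87 and 6.62 in control, a difference of -0.92 without overlap. It was larger in size than either call of that list and of the other sign. The regulator genes Irf1, Irf8 and Irf9 and the checkpoint ligand gene Cd274 were tested and not called.

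**Figure D4:**
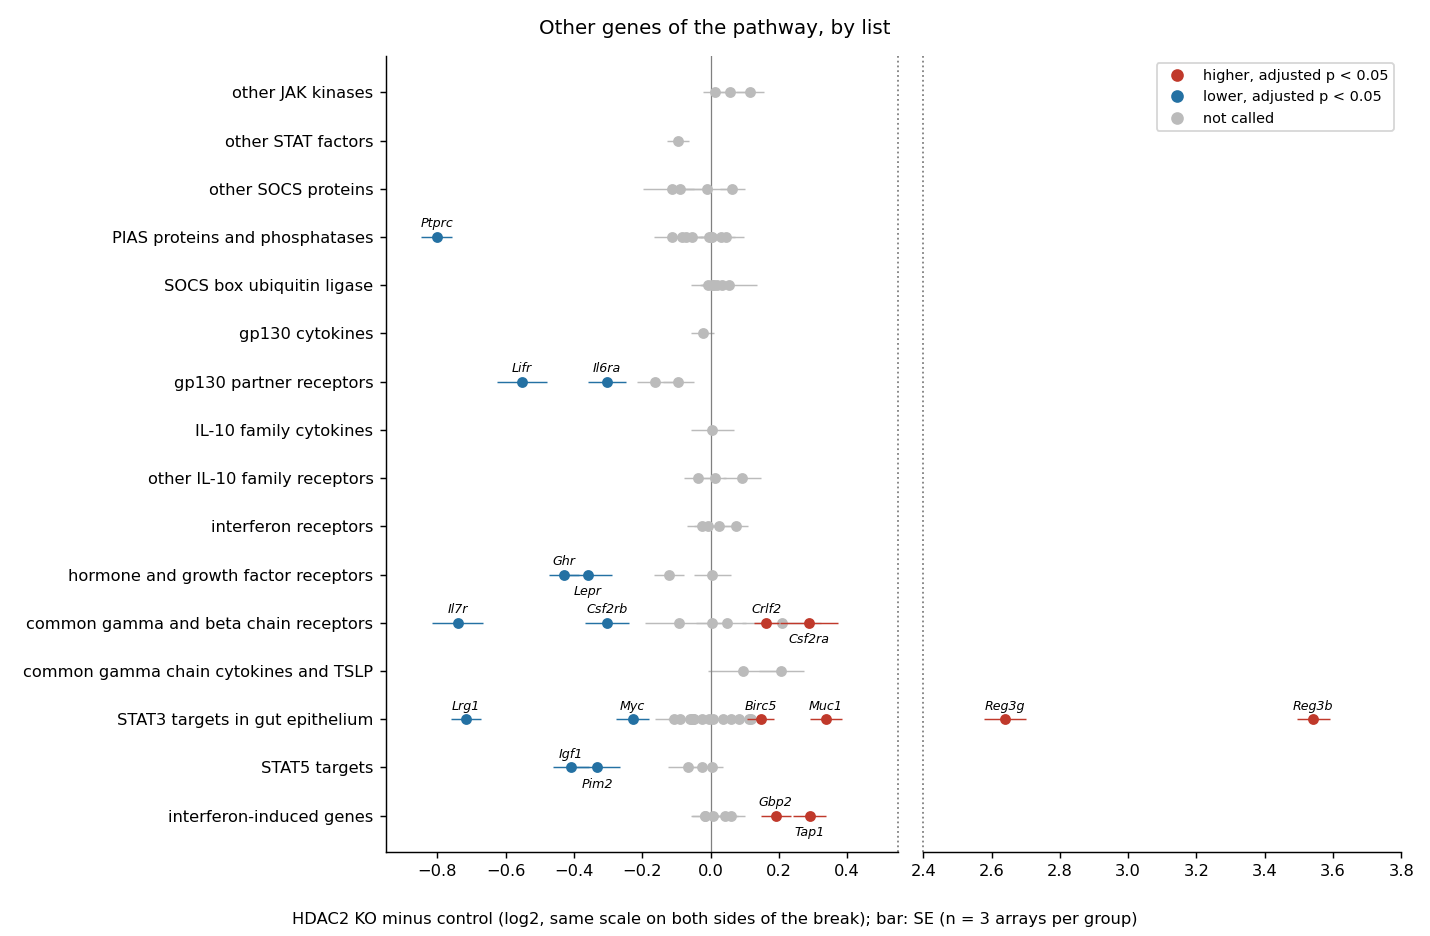
Difference HDAC2 KO minus control (log2, horizontal axis with a break, the same scale on both sides) of the 82 tested pathway genes that are no members, by list, with the SE as a bar (n = 3 arrays per group). Called genes are named, 8 higher in red and 11 lower in blue; Reg3b (3.54) and Reg3g (2.64) lie beyond the break.

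Of the 19 called pathway genes, 10 kept the call under every alternative that tested them: Ptprc, Lifr, Ghr, Il7r, Reg3b, Reg3g, Lrg1, Muc1, Igf1 and Tap1. Tap1 was tested under 16 of the 18 alternatives. The mean of each gene's probe sets was not among them, although its probe sets differed in direction. In another alternative the RMA values of each array were further centred on the mean of the 11 epithelial markers. Of these markers 2 were called higher in the main fit. With that centring 37 pathway genes were called, 33 of them lower (4 higher), and of the members 7, with 6 lower and Socs3 still higher. That centring moved the median of all genes tested to -0.09.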

How the data were processed

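Biotin-labelled cRNA of 6 colon samples was hybridised to one-colour Affymetrix mouse arrays. The deposited values are log2 signals that the authors made with RMA (no version stated), per the submitters' processing notes. The log2 scale was inferred from values between 2.39 and 14.6. Scanner files and scan dates were not used here. Names came from the platform annotation of the probe sets: 34945 had 1 symbol, 932 several and 9160 none listed; 34741 were matched to RefSeq by Entrez identifier. The probe set with the highest mean stood for a gene, and the 10916 genes at or above the 40th percentile (a log2 signal of 6.66) were tested with limma 3.58.1 in R 4.3.3 (lmFit, eBayes, group alone, Benjamini-Hochberg over all genes tested, called at an adjusted p under 0.05). The probe set fit used all 45037 without filter. The small number of arrays, 3 per group, limits precision. The fit was also run on simulated independent values without pairing, and nothing here rests on that run.

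The members and gene lists were chosen with earlier results of these data known. Named were all members, up to 6 called genes of each pathway list, up to 3 genes of each marker list by smallest p, Hdac2, Hdac1, Epcam, Vil1, Ptprc, Adipoq and the 3 genes nearest to the member with the largest difference. Hdac1 averaged 10.47 ± 0.053 in HDAC2 KO and 10.31 ± 0.032 in control, without overlap. It was called higher (0.15, SE 0.039, limma adjusted p = 0.0321, within 0.0079 to 0.19 over the alternatives). That call was lost under 9 of the 18 alternatives. Xist, Osmr and the uncalled list genes named without a test value were chosen after their values were seen. Same-numbered arrays of the groups deviated together (r between 0.20 and 0.34, against -0.37 to 0.18 for other pairs), so the replicate number was taken to pair them, from these correlations and not from a label. The lowest value of a same-numbered pair lay close to the highest of the other pairs, so the pairing is uncertain. The main fit has no block, and the calls that a block changed are given below. Protein sequences were not used here.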

Additional observations from a re-analysis of the deposited data

How the results depend on the processing

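Alternatives were another filter, probe set choice, scaling, variance model, threshold, the replicate block and leaving out each array. The replicate block gave 1943 called genes, where the unblocked fit gave 1952, and 1 called member in place of 2. The block changed the calls of Stat5b, Birc5, Osmr and Cd3e (limma adjusted p = 0.0977 with the block, within 0.00341 to 0.162 over the alternatives) and no other call among members and listed genes. Over all genes, 4439 were called with arrays centred on the epithelial markers (11.4% of them higher, against 54.1%), 3506 with array weights, 954 at an adjusted p under 0.01, and between 1130 (without control replicate 1) and 2107 without 1 array, with 1274 without HDAC2 KO replicate 1 and 1276 without control replicate 2. Members called numbered 3 with the mean of each gene's probe sets (Socs3, Jak1 and Il6st), 1 without filter, after further quantile normalization, at an adjusted p under 0.01 and with every probe set tested one by one, 0 with the filter at the 60th percentile, which removes Socs3, 7 with epithelial centring, and 1 to 2 without 1 array. Other pathway genes called numbered 7 with the 60th percentile filter, 37 with epithelial centring, 29 with array weights, 11 at an adjusted p under 0.01, 11 with every probe set tested one by one, and 14 to 19 without 1 array; marker genes called stayed within 1.5 times of 16. Among members, the uncalled difference of Stat3 changed sign with epithelial centring (-0.0701) and without HDAC2 KO replicate 1 (-0.0157), and that of Stat5a without control replicate 1 (0.0195) or without HDAC2 KO replicate 2 (0.0049). Among other named genes, uncalled differences changed sign for Ahr (0.0479 with the mean of its probe sets, 0.0072 without HDAC2 KO replicate 2, within -0.0919 to 0.0072 without 1 array), Acta2 (-0.0118 with epithelial centring) and Epcam (-0.0446 with the mean of its probe sets, -0.0701 with epithelial centring); apart from the fewer genes tested under a filter, the cause was not tested. The Socs3 difference lay between 0.46 and 0.79 under the alternatives that tested it. The 3 prime minus 5 prime signal was also compared as HDAC2 KO minus control without 1 array. That difference lay between -0.029 and -0.00945 for Actb and between -0.00554 and 0.0144 for Gapdh. Signal over background per probe set was not analysed here, so values near the filter, as for Socs1, carry unknown error from background.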
